A study of Mus musculus with 5 samples.

Results

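T and NK cells formed a small lymphocyte population of 130 cells in the library labelled VitA-Col1a1- from DEN+WAD mouse liver, which held 9870 cells. The 130 members were chosen by their expression: at least 2 of the 6 lymphocyte genes Cd3e, Cd3g, Trbc2, Nkg7, Il2rb and Klrb1c had to be detected together with Ptprc, the pan-leukocyte gene encoding CD45. Cells with any UMI (unique molecular identifier, a counted RNA molecule) of C1qa, Cd79a or Stab2 were left out, as were cells in which Dcn, Col3a1 and Colec11 summed to 40 or more per 10000 UMIs. The members made up 1.32% of the library (95% interval 1.10% to 1.56%) and were compared with its other 9740 cells. The whole series held 24007 cells in 5 libraries, and none of the other 4 libraries contained a cell with 2 of the 6 lymphocyte genes. None of these 4 libraries had a cell with Ptprc either, so none could have held a member. The reason was not tested.

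All 5 libraries came from non-parenchymal liver cells of male Rosa26mTmG;Col1a1-Cre mice on a C57BL/6J background, sorted by vitamin A (VitA) autofluorescence and by GFP, which marks cells in which the Col1a1 promoter has driven Cre. The 3 DEN+WAD libraries (VitA+Col1a1+, VitA-Col1a1+ and VitA-Col1a1-) were from mice injected with diethyl nitrosamine (DEN, a liver carcinogen) at 10 mg/kg at 2 weeks of age, then fed a liquid Western alcohol diet (WAD) with 3.5% ethanol by volume for 5 months from 6 weeks of age. The 2 chow libraries (VitA+Col1a1+ and VitA-Col1a1+) were from mice given saline and chow. No VitA-Col1a1- library of chow liver was analysed here, so the lymphocytes could not be compared between diets. The sources used here do not give the number of mice per library, and each group was 1 library, so the values below carry counting error only and no test between conditions was made.

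T cells recognise antigen through the T-cell receptor and its CD3 chains, and divide broadly into CD8 cells, which kill target cells, and CD4 cells, which direct other leukocytes. NK cells kill without an antigen receptor and read instead a balance of activating and inhibitory receptors, many of them of the Klr family. Liver sinusoids are known to hold many lymphocytes that carry CXCR6 and remain in the organ, among them memory CD8 T cells, NKT cells and resident NK-like cells. Killing is carried out by perforin, which opens the target membrane, and by granzymes, proteases delivered through it.

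The genes that chose the members describe the rule and are no finding. Trbc2, a constant segment of the T-cell receptor beta chain, had UMIs in 122 members, Cd3g in 113, Nkg7 in 103, Cd3e in 101, Il2rb in 96 and Klrb1c in 7. Of the members, 63 had 5 of the 6 genes, 36 had 4, 21 had 3 and 10 had 2. Their mesenchymal sum had a median of 1.83 per 10000 UMIs and was 39.9, 37.0 and 28.9 in the 3 highest members. The lowest cell removed by that limit alone had 99.2, so no cell lay just above it. Another 7 cells would have been members but for having 1 lymphocyte gene, and their median depth was 1226 UMIs against 4480.5 in the members.

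Genes of the T or NK marker list that the rule did not use also marked the members. Cd3d, a CD3 chain, was found in 112 of the 130 members, Lck, the kinase that starts T-cell receptor signalling, in 97, and Trac, the receptor alpha constant segment, in 88. Summed over its 12 genes, 4 of them used by the rule, the list reached 7761 counts per 1000000 UMIs (CPM) in members, 168 CPM in B cells and 3.97 CPM in mesenchymal cells. Members had to carry genes of the rule, so this difference between classes was set in part by that choice. These comparison classes were set by the same few genes: a macrophage class of 441 cells (C1qa), a B class of 26 (Cd79a), a sinusoidal endothelial class of 1531 (Stab2) and a mesenchymal class of 3451 (the collagen and decorin sum). The cell type field of the labels reads hepatic stellate cell. The stellate or fibroblast list summed to 987 CPM in members, 203 CPM in the macrophage class, 251 CPM in the B class and 23124 CPM in the mesenchymal class. The limit on Dcn, Col3a1 and Colec11 parted the mesenchymal class from the others, so that difference follows in part from the rule.

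RNA of other cell types was nevertheless present at low levels. The hepatocyte list was detected in 124 members at a median of 6.13 per 10000 UMIs, the macrophage list in 84 members at 2.13 and the endothelial list in 53 members at a median of 0. Of the defining B-cell genes, Ms4a1 was at 0 in members, while Ighm had UMIs in 27 members. The dendritic genes Flt3, Clec9a, Cd209a and Siglech were also at 0. The part of such RNA in the results was not tested.

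Members were shallower than the rest of the library, with 629, 4480.5 and 40590 UMIs per cell (lowest, median and highest) against a median of 9184 in the other cells. Of the members, 117 lay below the library median of 9105.5 UMIs. Their median mitochondrial share was 3.64%, against 3.61% in the other cells. Only 4 members exceeded 20000 UMIs, and these held 5.74%, 3.64%, 3.33% and 2.97% of all member UMIs. The deepest held 183 Sparc and 42 Dcn UMIs beside its lymphocyte genes, and the third deepest 73 Alb and 27 Krt18 UMIs. Scrublet, a doublet caller, marked 2 of the 130 members, 1 of them among these 4. The library shared 28 barcodes with the other libraries, none of them a member.

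The promoters of 4 leading genes are shown because the genes encode the liver-homing receptor and the killing proteins described below. Each is the 250 bases before the RefSeq start (GRCm38.p6), 5′ to 3′ on the gene's strand, with capitals for matches on either strand to TGTGGT, a core letter string of RUNX factors, or GGAAAA, one of NFAT factors. Matches do not overlap in these windows.
Cxcr6, chr9:123806227-123806476, plus strand: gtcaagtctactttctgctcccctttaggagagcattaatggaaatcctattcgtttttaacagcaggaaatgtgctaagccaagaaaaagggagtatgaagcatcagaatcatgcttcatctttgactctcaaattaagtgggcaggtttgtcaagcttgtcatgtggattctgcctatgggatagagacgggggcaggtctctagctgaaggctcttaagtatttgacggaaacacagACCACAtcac
Gzmb, chr14:56262335-56262584, minus strand: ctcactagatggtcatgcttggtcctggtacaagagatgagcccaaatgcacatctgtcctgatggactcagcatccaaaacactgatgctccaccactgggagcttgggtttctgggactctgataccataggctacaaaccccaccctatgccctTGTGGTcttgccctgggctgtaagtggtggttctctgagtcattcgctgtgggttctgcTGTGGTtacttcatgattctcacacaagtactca
Gzma, chr13:113100982-113101231, minus strand: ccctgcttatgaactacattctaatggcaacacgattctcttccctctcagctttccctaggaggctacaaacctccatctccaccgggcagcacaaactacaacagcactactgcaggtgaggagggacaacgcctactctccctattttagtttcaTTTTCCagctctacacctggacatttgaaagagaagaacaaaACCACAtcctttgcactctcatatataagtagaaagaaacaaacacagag
Prf1, chr10:61297586-61297835, plus strand: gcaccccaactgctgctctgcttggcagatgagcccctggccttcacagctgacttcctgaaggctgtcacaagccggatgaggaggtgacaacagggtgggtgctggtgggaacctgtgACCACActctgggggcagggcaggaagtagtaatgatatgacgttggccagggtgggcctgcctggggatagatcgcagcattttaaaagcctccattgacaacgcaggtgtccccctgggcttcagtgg
RefSeq windows were matched for 16 of the 25 leading genes, as 17 windows. TGTGGT or its reverse complement was in 7 of the 17 (41.2%), and in 14.0% of the 32851 promoter windows of the same length. GGAAAA was in 3 (17.6%) against 20.4% of all windows, and GGTGTGA, a T-box string, in 2 (11.8%) against 3.33%. A match of letters is a description and was not tested as a binding site.

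Ccl5 was the leading gene of the members outside the rule, followed by Ms4a4b, Trbc1, Cd3d, Gzma, Gzmb and Xcl1. The 25 leading genes reached 237 to 16213 CPM in members and at most 49.7 CPM in the other cells, with UMIs in 13.8% to 93.8% of members. Their ratios ran from 77.1-fold for Ltb to 3412-fold for Gzma. Among 8744 genes with a mean of at least 10 CPM over both classes, 367 (4.20%) were at least 4-fold higher in members after adding 5 CPM to each level, and 1266 (14.5%) at least 4-fold lower. Because the members were picked on expression in these same cells, such counts describe them and test nothing.

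**Figure D1:**
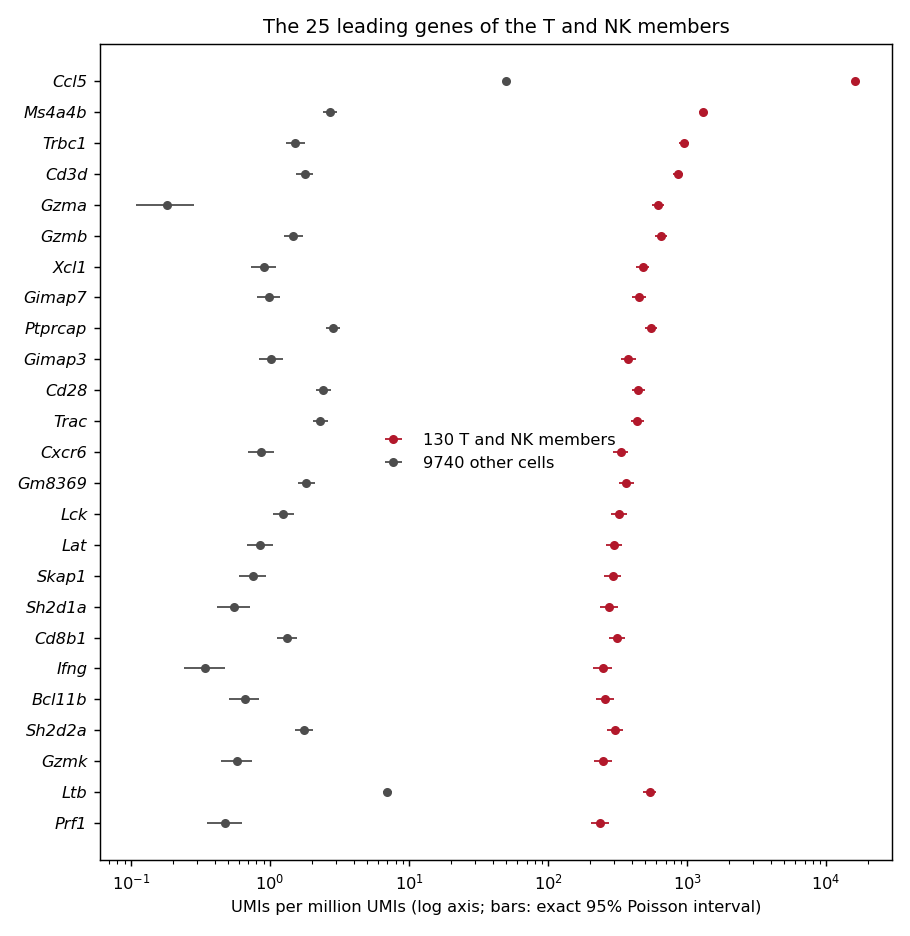
Level of the 25 leading genes in the 130 T and NK members (red) and the 9740 other cells (grey), in CPM on a log axis, with exact 95% Poisson intervals of counting error. Every red point lies above 200 CPM, and Ccl5, at 16213 CPM in members, is also the gene with the highest level in the other cells, at 49.7 CPM.

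The other cells included 49 cells with 2 or more lymphocyte genes that failed another condition: 9 lacked Ptprc, 34 had C1qa or Stab2 and 6 had a high mesenchymal sum. These 49 cells held 67.9% of the Ccl5 UMIs found outside the members, 90.1% of those of Cxcr6 and 91.9% of those of Pdcd1. Without them the member-to-other ratio was 1012-fold for Ccl5 (961 to 1066) in place of 326-fold.

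Ccl5, the chemokine RANTES that draws T cells and monocytes (chromosome 11, 83525778 to 83530518, minus strand, GRCm38), gave 11470 UMIs in members, 16213 CPM (15917 to 16512). It had UMIs in 100 of 130 members, and per 10000 UMIs its lowest, median and highest values were 0, 68.1 and 1047. The remaining cells had 49.7 CPM (48.4 to 51.1), a 326-fold lower level (interval of the ratio 315 to 337). After thinning every cell to 1000 UMIs, which left out 7 members and 823 other cells, Ccl5 was seen in 72.4% of members (63.6% to 80.0%) and in 0.527% of mesenchymal cells, whose unthinned share was 4.49% at a median depth of 10772 UMIs. The members, 0.670% of the library's UMIs, held 68.7% of its Ccl5 UMIs.

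Other chemokines and cytokines were less abundant than Ccl5. Ccl4 and Ccl3, the chemokines MIP-1 beta and alpha, stood at 906 and 295 CPM, in 60 and 45 members. The macrophage class held them at 867 and 312 CPM, and the ratios to all other cells were 5.39-fold (4.98 to 5.84) and 4.81-fold (4.17 to 5.52). Ifng, the main macrophage-activating cytokine of lymphocytes, was at 247 CPM (212 to 287) in 44 members, 721-fold (502 to 1063) above the other cells. Ltb, a membrane-bound lymphotoxin chain, was more widespread at 539 CPM in 105 members. Xcl1, which draws cross-presenting dendritic cells, was at 479 CPM in 29 members, but a single member gave 57.2% of its UMIs, and without the 4 deepest members it was at 238 CPM. Il10, an anti-inflammatory cytokine, was at 72.1 CPM in 20 members, whereas Il17a, Il22 and Il13 were not detected, a limit of 4.24 CPM at 3 UMIs. Of the 12 cytokine and chemokine genes tested on this list, 10 were at least 4-fold higher and none lower, against 4.20% and 14.5% over all genes tested. Their median log2 ratio was 2.76 against -0.16 over all genes tested.

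The killing genes were abundant. Gzmb, encoding granzyme B (chromosome 14, 56258838 to 56262260, minus strand), was at 650 CPM (592 to 712) with UMIs in 61 members and 0, 0 and 63.7 UMIs per 10000 as lowest, median and highest values. Prf1, encoding perforin (chromosome 10, 61297833 to 61304680, plus strand), was at 237 CPM (203 to 276) in 60 members. Fasl, a death ligand, was at 143 CPM, also in 60 members. Gzmk, a granzyme found in memory CD8 cells, was at 249 CPM in 48 members. Gzma (chromosome 13, 113093825 to 113100981, minus strand) was at a like level of 618 CPM (561 to 678) but in only 18 members, whose median was 43.6 UMIs per 10000. Gzma was therefore concentrated in few cells while Gzmb was spread over many. Of 11 cytotoxic genes tested, 7 were at least 4-fold higher, against 4.20% of all genes tested. The other 4, Srgn, Serpinb6b, Serpinb9 and Tnfsf10, were between 1.30-fold and 3.78-fold. Gzmc had 1 UMI and Gzmm none.

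Components of the T-cell receptor and its signalling were higher in members as a group. All 7 tested genes of the receptor complex and all 16 co-receptor and signalling genes were at least 4-fold higher, with median log2 ratios of 4.53 and 5.12. Over all genes tested the share was 4.20%. The rule itself used Cd3e, Cd3g and Trbc2, so these counts describe the members and test nothing. Cd28, the main costimulatory receptor, was at 447 CPM in 105 members. Lat, the adaptor that links the receptor to downstream signals, was at 298 CPM in 79. Among lineage transcription factors 9 of 13 were at least 4-fold higher. Bcl11b, which holds T-cell identity, was at 259 CPM in 87 members, Runx3, a factor of CD8 and NK cells, at 276 CPM in 88, and Eomes, a T-box factor of killing cells, at 98.9 CPM in 34. Gata3 was at 109 CPM in 32 members, of whom 1 gave 33.8% of its UMIs. Zeb2 was lower, at 73.5 against 507 CPM.

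Members were divided by co-receptor and NK genes. The T gate (at least 1 UMI of Cd3d, Cd3e or Cd3g) took 119 members, 91.5% (85.4% to 95.7%). The NK gate (none of these and at least 1 UMI of Ncr1, Klrb1c or Klre1) took 10 members, 7.69% (3.75% to 13.7%), and 1 member was in neither. Cd3e, Cd3g and Klrb1c were also genes of the rule, so these shares depend in part on how the members were chosen. Within the T gate, 55 cells had Cd8a or Cd8b1 and no Cd4 (46.2%, 37.0% to 55.6%), 31 had Cd4 alone (26.1%, 18.4% to 34.9%), 3 had both and 30 had neither co-receptor (25.2%, 17.7% to 34.0%). A missing co-receptor UMI can be a missed molecule, so the last group is not a cell type. Median depths were alike, at 4380, 4655, 4248 and 4782 UMIs in the CD8, CD4, neither and NK groups.

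**Figure D2:**
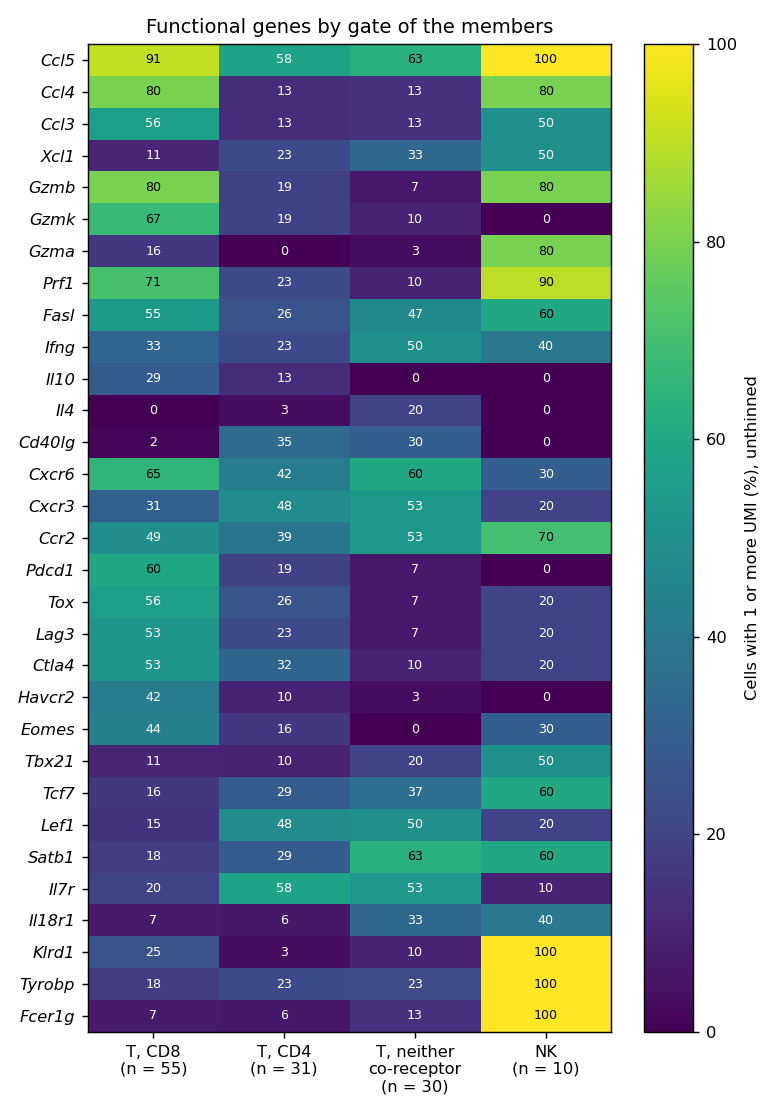
Share of cells with at least 1 UMI (percent, unthinned) of functional genes in 4 gates of the members. Gzmb was in 44 of 55 CD8 and 6 of 31 CD4 cells, Satb1 in 19 of the 30 cells with neither co-receptor, and Tyrobp, Fcer1g and Klrd1 in all 10 NK cells.

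Ccl5 and most killing genes were higher in CD8 than in CD4 members. Ccl5 was at 30000.9 CPM in the CD8 gate and 3942 CPM in the CD4 gate, a 7.61-fold difference (7.04 to 8.23), with UMIs in 50 of 55 and 18 of 31 cells. A single CD4 cell gave 324 of the gate's 690 Ccl5 UMIs, and without it the difference was 13.8-fold (12.4 to 15.4). Gzmb was 11.4-fold higher (7.31 to 18.9; 44 against 6 cells) and Ccl4 10.2-fold higher (6.81 to 15.9; 44 against 4 cells). Of the 25 Ccl4 UMIs in the CD4 gate 22 were in 1 cell, without which the ratio was 84.4-fold (28.7 to 411). Prf1 was 4.53-fold higher (2.59 to 8.55), Gzmk 3.17-fold (2.06 to 5.07) and Fasl 2.91-fold (1.51 to 6.15). Gzma had 128 UMIs in 9 CD8 cells and none in the 31 CD4 cells, at least 24.4-fold higher against 3 UMIs, although 1 CD8 cell held 62 of the 128. Thinned to 1000 UMIs, Gzmb was seen in 35 of 55 CD8 and 3 of 27 CD4 cells.

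Of the 10 genes with the largest CD8 ratio outside the gates, Tmem189, Sec14l1, Mex3c, Mtf1, Tnk2 and Dapk2 rested on 13 to 27 UMIs. Sparc, a matrix protein of mesenchymal cells, was also among them, at 636 CPM. Of its 195 UMIs in the CD8 gate, 183 were in the deepest member named above. Of the 4 members over 20000 UMIs, 1 was in the CD8 gate and 2 in the CD4 gate. Without these members Sparc was at 45.1 CPM in the CD8 gate and 70.1 CPM in the CD4 gate, a turned direction with an interval that includes 1 (CD8 over CD4 0.249 to 1.73). Gzmk, of which 1 CD4 cell held 14 of 25 UMIs, moved to a CD8 ratio of 6.09-fold (3.30 to 12.5), while Ccl5 stayed 6.40-fold (5.93 to 6.93) and Gzmb 9.57-fold (6.12 to 15.8) higher in the CD8 gate.

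The CD4 gate led in other genes. Cd40lg, the helper signal to B and dendritic cells, was 10.5-fold higher there (3.07 to 55.7), with UMIs in 11 of 31 CD4 cells and 1 of 55 CD8 cells. Tbc1d4 was 23.7-fold higher on 27 against 2 UMIs (5.94 to 205). Gata3 was 6.53-fold higher (3.30 to 14.1) and Rora 6.48-fold (3.16 to 14.6), with Rora in 14 CD4 and 5 CD8 cells. Dusp10, Trat1, Tspan13, Tspan32, Pag1 and Spp1 completed the 10 leading CD4 genes, at ratios of 5.81-fold to 8.32-fold. Without the members over 20000 UMIs the CD4 ratio of Gata3 was 2.83-fold (1.21 to 6.81), that of Dusp10 4.41-fold (1.80 to 11.8) and that of Tspan13 3.38-fold (1.85 to 6.34). A single CD4 cell held 32 of the 41 Spp1 UMIs of that gate, and without it the ratio was 1.64-fold, with an interval that includes 1 (0.591 to 4.50). In the CD8 gate 1 cell held all 3 Cd40lg UMIs and another 5 of the 10 Rora UMIs, and without the latter Rora was 12.8-fold higher in the CD4 gate (5.00 to 41.6). Tnfrsf4, the costimulatory receptor OX40, was 5.26-fold higher (2.88 to 10.2). Foxp3, the regulatory T-cell factor, had 4 UMIs in 2 members, 1 of them in the CD4 gate. All 6 tested genes of the regulatory T-cell list were nevertheless at least 4-fold higher in members, against 4.20% of all genes tested. Those 6 (Ctla4, Tnfrsf18, Tnfrsf4, Ikzf2, Il2ra and Tnfrsf9) are also known in activated T cells without Foxp3.

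The 30 T-gate members without a co-receptor UMI had another profile. Ifng was found in 15 of them at 367 CPM, against 202 CPM in the CD8 gate and 143 CPM in the CD4 gate. The NK gate was higher, at 575 CPM in 4 of 10 cells. Il18r1, a chain of the IL-18 receptor, was in 10 of the 30 but in 4 of 55 CD8 and 2 of 31 CD4 cells. Il4 was in 6 of the 30, 1 CD4 cell and no CD8 cell. Satb1, a chromatin organiser of T cells, was at 480 CPM in 19 cells, against 68.5 CPM in the CD8 gate and 183 CPM in the CD4 gate. Cxcr6 was as frequent as in CD8 cells, in 18 of 30, whereas Gzmb was in 2, Gzmk in 3, Pdcd1 in 2 and Eomes in none. For Eomes, 0 of 30 cells limits the share of cells with a UMI to 10.0% but not the share that express the gene. Gamma-delta constant segments (Tcrg-C1, Tcrg-C2 or Tcrg-C4) were in 8 of the 30, against 7 of 55 CD8 and 4 of 31 CD4 cells, and Trdc, the delta constant segment, was in 2. Zbtb16, the factor of innate-like T cells, was in 4.

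The 10 NK-gate members had their own receptors and adaptors. Tyrobp and Fcer1g, adaptors that relay activating signals, were in all 10 cells at 2665 and 1359 CPM, 54.0-fold (36.7 to 81.8) and 42.0-fold (25.7 to 71.6) above the T gate. Gzma was at 4930 CPM in 8 of 10 NK cells and at 237 CPM in 10 of 119 T cells, 20.8-fold higher (17.0 to 25.4), or 34.1-fold (26.8 to 43.6) without the T cell that held 62 of the 154 T-gate UMIs. Klrk1, encoding NKG2D, was 15.1-fold higher (10.3 to 22.1) and Klrd1, encoding CD94, 14.5-fold (8.90 to 23.8), both found in every NK cell. Cma1, Klra3, Klra4, Klra5, Klra7, Klrb1a, Klrb1b and Klri2 completed the 10 leading NK genes, on 7 to 27 UMIs each. The Klra genes are near-identical, and the part of read assignment in their counts was not tested.

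Ccl5 did not separate NK from T members, at 16479.7 and 16218 CPM, a ratio of 1.02 (0.95 to 1.09). Gzmb was at 523 and 663 CPM, a ratio of 0.789 (0.526 to 1.14). Trac, Bcl11b, Gzmk, Cd5, Themis and Pdcd1 had no UMI in the 57404 NK UMIs and were at least 9.17-fold, 5.40-fold, 5.19-fold, 3.33-fold, 3.21-fold and 2.65-fold higher in the T gate, against 3 UMIs. Gm8369, Ier3, Tardbp and Cd6, the rest of the 10 leading T genes, were also at 0 in NK cells. Trbc1, a beta-chain constant segment, was however found in 9 of 10 NK cells at 505 CPM.

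**Figure D3:**
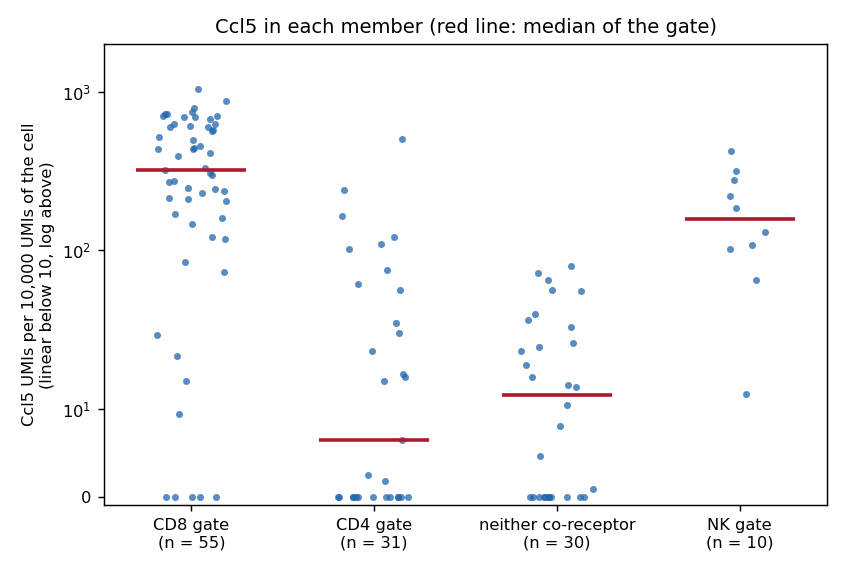
Ccl5 UMIs per 10000 UMIs in each cell of 4 member gates (points, symmetric log axis that is linear below 10), with the gate's median as a red line. The medians were 319 in the CD8 gate, 6.44 in the CD4 gate, 12.1 without a co-receptor and 157 in the NK gate, and the ranges of the gates overlap.

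Over single cells, the CD8 gate spanned 0 to 1047 Ccl5 UMIs per 10000, and 44 of its 55 cells exceeded 100. The CD4 gate reached 501, with 6 cells above 100 and 13 at 0. Cells without a co-receptor reached 79.5. NK cells ranged from 12.4 to 422, with none at 0. The gates overlap, so no gate is defined by Ccl5.

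Homing and residence genes were led, in the ratio to the other cells, by Cxcr6, the receptor for CXCL16 (chromosome 9, 123806475 to 123811760, plus strand), whose promoter is printed above. By level, Rgs1 of the residence list was higher, at 794 CPM in the T gate and 2003 CPM in the NK gate, against 342 and 209 CPM for Cxcr6. Cxcr6 was at 332 CPM (291 to 377) in members and 0.867 CPM in the other cells, with UMIs in 74 of 130 members (56.9%, 48.0% to 65.6%) and a highest value of 51.5 per 10000 UMIs. Thinned to 1000 UMIs the share was 24.4% (17.1% to 33.0%). In mesenchymal cells it was 0.0580% unthinned and 0 of 3225 thinned cells, which allows a share with a UMI of up to 0.0930% and sets no limit on cells that express the gene. By gate, Cxcr6 was in 36 of 55 CD8, 13 of 31 CD4, 18 of 30 neither and 3 of 10 NK cells, and the CD8 level exceeded the CD4 level 2.01-fold (1.38 to 2.97). Cd69, which holds T cells in tissue by removing S1PR1, was at 260 CPM in 70 members. Itgae, the CD103 chain of epithelial residence, had 1 UMI, as did Zfp683, which encodes the residence factor Hobit. Itga1 and Hic1 were lower than in the other cells, and of the 6 tested residence genes 2 were at least 4-fold higher and 2 lower. Over all genes tested 4.20% were higher and 14.5% lower, so with a list this short nothing is read from these counts.

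Ccr7, the chemokine receptor of T cells that return to lymph nodes, had UMIs in 14 members, mostly without Cxcr6. It was in 1 of the 74 members with Cxcr6 and 13 of the 56 without. Median depths of the members with and without Cxcr6 were 4643.5 and 4055 UMIs, and the part of depth in this split was not tested. Of 10 genes on the list of naive and recirculating T cells, 7 were at least 4-fold higher in members, against 4.20% of all genes tested. S1pr1 and Klf2 stood at ratios of 0.784 and 0.780 and Igfbp4 at 0.142. These pairings are counts over cells of 1 library and were not tested.

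The inhibitory receptors Pdcd1, Lag3 and Ctla4 were higher in CD8 than in CD4 members. Pdcd1, encoding PD-1 (chromosome 1, 94038305 to 94052553, minus strand), was at 127 CPM (102 to 156) in 44 members, 33 of them in the CD8 gate. Ctla4 and Lag3 were at 167 and 164 CPM in 46 and 41 members, Havcr2, encoding TIM-3, at 56.5 CPM in 30, while Tigit had 6 UMIs. Between CD8 and CD4 gates the ratio was 2.35-fold for Pdcd1 (1.35 to 4.36), 2.99-fold for Lag3 (1.77 to 5.36) and 1.73-fold for Ctla4 (1.10 to 2.82). Without the CD4 cell richest in each gene, the ratio was 5.41-fold for Lag3 (2.73 to 12.2), and Ctla4 stood at 258 against 85.9 CPM (interval of the ratio 1.69 to 5.74). Tox, the factor that accompanies sustained PD-1 expression, was in 34 of the 44 members with Pdcd1 (77.3%) and 11 of the 86 without (12.8%). Lag3 was in 31 of those 44 (70.5%) and 10 of the 86 (11.6%). Within the CD8 gate, Pdcd1 was in 28 of 36 cells with Cxcr6 and 5 of 19 without, and Gzmk in 28 and 9. Ifng ran the other way, with Pdcd1 in 8 of 18 CD8 cells that had Ifng and 25 of 37 that lacked it. The members with and without Pdcd1 had median depths of 4554 and 4322.5 UMIs.

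The killing genes overlapped unevenly. Gzmb was in 17 of the 18 members with Gzma, whereas Gzmk was in 6 of them. Prf1 accompanied Gzmb in 49 of 61 members. Gzmk was in 40 of the 61 members with Gzmb and in 8 of the 69 without.

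RNA of several cytokine and chemokine receptors was found in the members. Il7r, the IL-7 receptor chain of long-lived T cells, was at 223 CPM in 47 members, Il2rg, the shared gamma chain, at 170 CPM in 73, and Il21r at 86.2 CPM in 41. Il18r1 and Il18rap were at 49.5 and 35.3 CPM. Il23r had 1 UMI. Among chemokine receptors, Ccr2 was at 228 CPM in 65 members, Cxcr4 at 146 CPM in 54 and Cxcr3 at 119 CPM in 51. Ccr6, Cxcr5 and Ccr9 had 1, 3 and 4 UMIs. In all, 7 of 12 cytokine receptors and 6 of 9 chemokine and S1P receptors tested were at least 4-fold higher, and none was lower. Over all genes tested 4.20% were higher and 14.5% lower.

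Ligands for these receptors were found in neighbouring cells of the library. Cxcl16, the CXCR6 ligand, was at 476 CPM (460 to 493) in the macrophage class, 232 CPM in the sinusoidal endothelial class, 100 CPM in the mesenchymal class and 15.5 CPM in members. Cxcl9, a CXCR3 ligand induced by interferon gamma, was at 412 CPM (401 to 424) in the endothelial class, 270 CPM in the macrophage class and 2.83 CPM in members. Cxcl12, the CXCR4 ligand, was at 1556 CPM (1543 to 1568) in the mesenchymal class and 14.8 CPM in the macrophage class. Cd274, encoding PD-L1, was highest in the macrophage class, at 138 CPM (129 to 147), and 4.64 CPM in the mesenchymal class. Il18 was at 53.1 CPM in the macrophage class and at most 4.24 CPM in the members and the other 3 classes. Ccl2, a CCR2 ligand, was at 520.2 CPM in the mesenchymal class. Its 188 CPM in members came to 96.2% from a single cell. Of the 15 ligands tested, 1 (Pdcd1lg2, which encodes PD-L2, at 24.0 CPM in members) was at least 4-fold higher in members and 5 were lower. Over all genes tested 4.20% were higher and 14.5% lower, so with a list this short nothing is read from these counts. Levels were read as RNA, and no contact between the cells was measured.

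**Figure D4:**
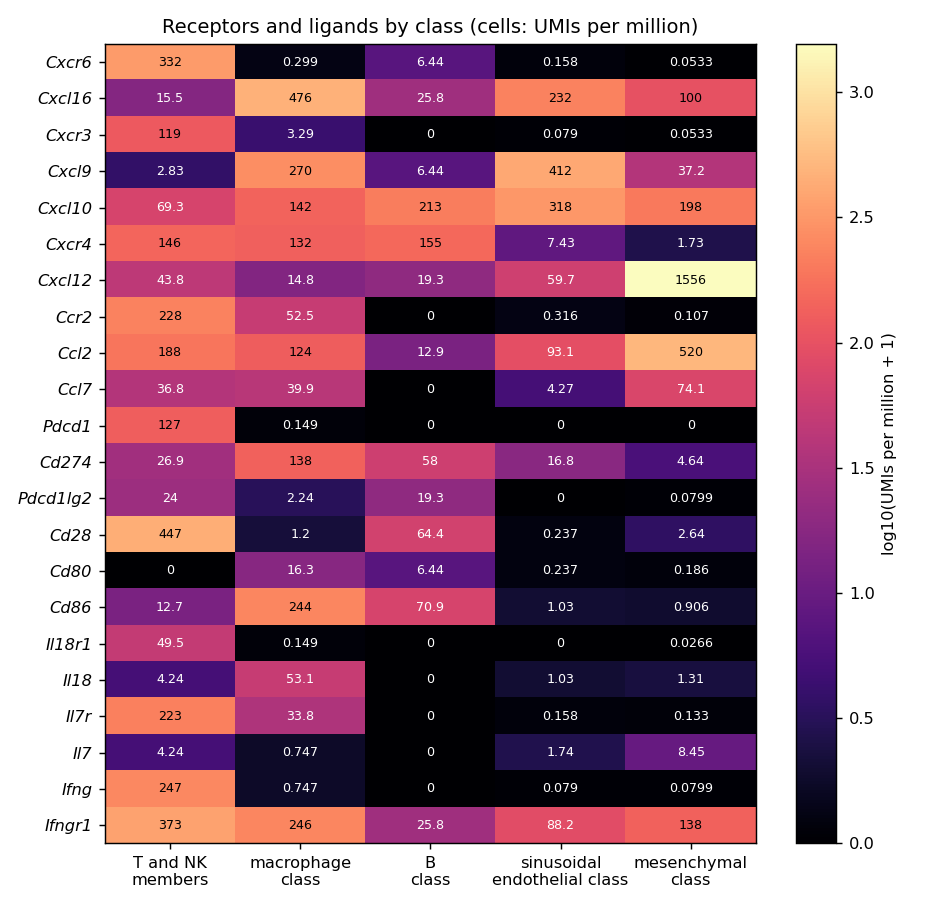
Level of receptors and their ligands in the members and 4 cell classes, printed as CPM and coloured by log10(CPM + 1). Cxcr6, Cxcr3, Pdcd1 and Il18r1 are high in the member column, while Cxcl16, Cxcl9, Cd274 and Il18 are high in the macrophage or endothelial columns and Cxcl12 in the mesenchymal column.

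A few members were cycling. Of 13 cell-cycle genes, 70 members had none, 49 had 1 to 3 and 11 had 4 or more (8.46%, 4.30% to 14.6%), and these 11 held 88.8% of the members' cell-cycle UMIs. By gate they were 4 CD8, 3 CD4, 2 neither and 1 NK cell, with 1 more having both co-receptors. Mki67 was at 150 CPM in 17 members and Top2a, a topoisomerase of dividing cells, at 229 CPM in 31. The share with 4 or more genes was 3.05% (2.72% to 3.41%) in the other cells and 7.03% (4.83% to 9.83%) in the macrophage class. In the B class it was 11.5% (2.45% to 30.2%), 3 of 26 cells. Median depth of the 11 members was 9678 UMIs, deeper than the members as a whole. The part of depth and of free RNA in this share was not tested.

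Interferon response and stress genes were not among the genes higher in members. No type I interferon response gene of 13 tested was at least 4-fold higher and 3 (Irf7, Bst2 and Oasl2) were lower, with a median log2 ratio of -1.42 against -0.16 for all genes. No immediate-early or heat shock gene of 15 was higher and 4 (Fos, Fosb, Egr1 and Zfp36) were lower, with a median of -0.68. Over all genes tested 4.20% were higher and 14.5% lower, so with lists this short nothing is read from these counts. Fos was at 461 against 2306 CPM, whereas Dnajb1 and Hsp90aa1 had ratios of 2.23 and 1.88. The 10 genes lowest in members were Hbb-bs, Lpl, Clca3a1, Reln, Rspo3, Cfp, Hba-a1, Lyve1, Mgp and Ctgf, among them 2 red-cell globins (Hbb-bs and Hba-a1), the stellate-cell gene Reln and the endothelial gene Lyve1. Lpl, lipoprotein lipase, was at 11.3 against 700.0 CPM. Cfp and Lyve1 had no UMI in members, at least 39.9-fold and 35.6-fold lower against 3 UMIs. These values lean on the rule: with cells that had C1qa, Cd79a or Stab2 let in, the log2 ratio after adding 5 CPM went from -5.12 to -1.04 for Cfp, from -4.96 to -2.96 for Lyve1 and from -5.43 to -3.35 for Lpl.

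Genes of the oxylipin and desaturase pathway that the study followed were sparse in lymphocytes. None of the 10 tested was at least 4-fold higher, and 7 were lower, against 4.20% and 14.5% over all genes tested. Tbxas1, thromboxane synthase, had no UMI in members and 128 CPM in the macrophage class. Ptgs1, cyclooxygenase 1, was at 2.83 against 88.2 CPM, and Cyp1b1 had 1 UMI. Scd1, a stearoyl-CoA desaturase, was at 22.6 against 109 CPM, in 16 members, and Scd2 at 21.2 against 67.9 CPM. Ltb4r2, the receptor named in the title of the series, had no UMI in members, which limits it to 4.24 CPM, and Ltb4r1 had 6 UMIs in 5 members. Yap1 had 2 UMIs.

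Receptor variable genes were too sparse to describe clones. Over 250 V and J genes, 18 had a UMI in members, 59 UMIs in all in 39 members. Trgv2 had 17 UMIs in 13 members and Trbv12-2 9 UMIs in 8. Trav11 and Traj18, the segments of the invariant NKT receptor, had 1 UMI each.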

How the data were processed

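Liver cells were sorted and made into 5 droplet libraries by the authors, with 1 library per group of the labels. Per the labels both the v3.1 and the v2 3′ kit are named. The submitters' processing notes name Cell Ranger 3.1.0 and mm10, and the file header of the VitA-Col1a1- library names version 6.1.2. What the authors deposited were counts of UMIs for each gene in each barcode, without normalization, and every barcode was taken as a cell. The library had 105670468 UMIs (other libraries 6145748 to 149936344).

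Counts were summed over the members and over the other cells and divided by total UMIs, giving counts per 1000000 UMIs (CPM). Intervals (95%) are exact Poisson for levels, conditional binomial for ratios and Clopper-Pearson for shares, and cover counting error only. A gene at 0 took a floor of 3 UMIs. Genes were ranked by the ratio of levels after adding 5 CPM, among genes with a mean of at least 10 CPM. Named were the 25 largest ratios with UMIs in at least 10% of members, the 10 smallest among genes of at least 100 CPM in the other cells, neither including the 13 genes of the rule, all genes of 17 pathway and 10 marker lists as counts or examples, and for each pair of gates the 10 largest ratios each way among genes in at least 20% of a gate. Ccl19 and Ccl21a, each on several identifiers, were left out of their list. Shares were thinned once to 1000 UMIs (seed 7). The members and lists were chosen with earlier results of these data known, and the printed promoters, the genes of the heat maps and the pairs of genes counted together in cells after values were seen. With 1 library per group no p-value was computed. The ratio and thinning code was tested on simulated data. Positions are from GENCODE M21 (GRCm38), which held 31011 of 31053 identifiers. The tools were scipy 1.17.1 with Python 3.11.15, matplotlib 3.10.9, numpy 2.4.6, scanpy 1.11.5, pandas 2.3.3, and edgeR 4.0.16 with R 4.3.3 (for TMM factors). Alternatives covered the rule, doublets (Scrublet), depth, comparison cells, scaling, added CPM and filters. Some listed genes are not reported here.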

Additional observations from a re-analysis of the deposited data

How the results depend on the processing

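No paired analysis was possible because each group was 1 library, and no replicate could be left out. Of 75 alternative values of the main results, 68 stayed within 1.5 times a count or within the interval of a share, and 7 moved. Genes at least 4-fold lower in members numbered 1266 as reported, 669 against other cells with Ptprc, 493 with 20 CPM added and 555 with a mean CPM of 50. Genes at least 4-fold higher numbered 367 as reported, 180 with 20 CPM added and 192 with a mean CPM of 50. The share of members with Cxcr6 was 24.4% at 1000 UMIs, 35.0% thinned to 2000 UMIs and 56.9% with no thinning. The filter at 50 CPM left 3163 genes to test, added CPM draws the ratios of low genes towards 1, and less thinning leaves more molecules a cell, while the cause of the difference against cells with Ptprc was not tested. The number of members ranged from 117 to 162. With the 4 members over 20000 UMIs left out, an alternative added after seeing the data, 393 genes were at least 4-fold higher and 1440 lower, and the CD8 share was 47.0%. It turned the direction of Sparc between the CD8 and CD4 gates, to 45.1 and 70.1 CPM. Of 525 alternative ratios of the 25 leading and 10 lowest genes, 524 kept their direction and the 4-fold limit and none reversed. The other was Cfp, among the lowest 10 and named for its change, with a log2 ratio of -1.04 without the condition on C1qa, Cd79a and Stab2. Of the 25 leading genes, 24 again led under 7 alternatives, 23 with 1 CPM added, 21 with 20 CPM added and 25 under the other 6. Leaving out the cell richest in a gene, also added after seeing the data, moved several ratios between gates by over 1.5 times, and took the interval of Spp1 to include 1.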
